A study of Homo sapiens with 12 samples.

Results

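The multicopy gene families of human genome activation were followed through 12 RNA-seq libraries of H9 cells in which LINE1 RNA had been targeted. Members were the rows of the count table whose symbols begin with PRAMEF, RFPL, TRIM43, TRIM48, TRIM49, TRIM51, MBD3L, ZSCAN5, DUXA, DUX4, LEUTX, TPRX2, KDM4E or KHDC1. This rule uses names alone and took 97 of 53712 named genes, in 14 families. Of these rows, 36 held at least 1 count in any library and 61 were at 0 in all 12.

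H9 is an established human embryonic stem cell line, grown here in RSeT medium, a medium made for naive-like pluripotency. The ASO-L1 group received antisense oligonucleotides to LINE1 RNA, the SO-L1 group received the sense oligonucleotides, and the ASO-Ctr group received non-targeting antisense oligonucleotides, each at 25 nM. All 3 groups then received 10 nM DZNep, which inhibits S-adenosylhomocysteine hydrolase and lowers histone methylation, and 5 nM TSA, a histone deacetylase inhibitor. In all of them trans-ISRIB, emricasan and Y-27632 were withdrawn at 24 h, and cells were harvested unsorted at 48 h. Each group had 4 stranded poly(A) libraries, numbered 1 to 4, of 1 cell line, so every difference below was measured on top of the 2 inhibitors, and p-values measure the spread between these libraries, which the labels do not tie to separate cultures.

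In the human embryo the zygotic genome is switched on mainly around the 8-cell stage. DUX4, a double homeobox factor encoded in a repeat array, binds and activates many of the genes that come on in that window, among them members of the PRAMEF, RFPL, TRIM43, TRIM49, MBD3L and ZSCAN5 groups, LEUTX, DUXA and KDM4E. Most of these groups arose by repeated local duplication, so a short read from one copy can also match another. In ordinary pluripotent stem cells most of these genes are nearly silent, and the activity of such genes marks the rare cells that resemble the 8-cell stage.

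Whether these genes share letters upstream of their starts was examined first. The RefSeq promoter table (GRCh38.p14) held 50 starts of 40 members, and the 250 bases before each start were searched on both strands for TAATCC, the core recognised by bicoid-class homeodomain proteins (GGATTA on the other strand), and for the TATA box letters TATAAA, which can share at most the end letters TA. TAATCC was found before 20 member starts (40%), against 5.62% of all 35116 windows of that length. TATAAA was found before 16 member starts (32%), against 10.7% of all windows. The TAATCC matches lay before 12 of 17 PRAMEF starts, 4 of 6 MBD3L starts, 2 of 5 TRIM49 starts, 1 of 2 LEUTX starts and 1 of 7 RFPL starts, and before none of the 6 ZSCAN5 or 3 KHDC1 starts. Copies share their upstream sequence, so these starts are not independent, and a match describes letters and not a bound site. The background windows were not matched for base composition, whose part in these shares was not tested. GC content was 36.4% to 49.2% before the PRAMEF starts, and 41.2%, 63.6% and 69.6% before the 3 KHDC1 starts. The windows below show these letters in 4 families, with the match in capitals, and run 5′ to 3′ on the strand of the gene.
PRAMEF2, chr1:12856836-12857085, plus strand: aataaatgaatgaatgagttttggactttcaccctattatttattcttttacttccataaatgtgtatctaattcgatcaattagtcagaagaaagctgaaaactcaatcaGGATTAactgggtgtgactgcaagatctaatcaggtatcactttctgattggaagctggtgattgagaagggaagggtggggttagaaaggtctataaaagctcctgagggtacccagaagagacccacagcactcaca
MBD3L2, chr19:7049071-7049320, plus strand: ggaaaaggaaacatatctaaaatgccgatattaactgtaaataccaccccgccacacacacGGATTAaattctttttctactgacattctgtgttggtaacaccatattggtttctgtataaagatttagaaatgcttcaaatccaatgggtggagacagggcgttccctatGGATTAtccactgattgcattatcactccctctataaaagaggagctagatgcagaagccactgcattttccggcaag
LEUTX, chr19:39778604-39778853, plus strand: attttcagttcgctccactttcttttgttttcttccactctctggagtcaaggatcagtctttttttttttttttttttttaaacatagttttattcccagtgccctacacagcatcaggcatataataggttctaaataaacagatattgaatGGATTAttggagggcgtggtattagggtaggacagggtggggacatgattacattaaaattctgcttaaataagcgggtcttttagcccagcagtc
RFPL4A, chr19:55758847-55759096, plus strand: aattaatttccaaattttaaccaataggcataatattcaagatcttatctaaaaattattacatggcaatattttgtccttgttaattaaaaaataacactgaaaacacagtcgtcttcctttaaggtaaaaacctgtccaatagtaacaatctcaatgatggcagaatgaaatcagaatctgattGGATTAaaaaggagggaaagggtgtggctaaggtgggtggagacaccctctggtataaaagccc

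KHDC1L and RFPL2 are among the rare members with the most counts after ASO-L1, and their windows are given for comparison. Neither holds a TAATCC match, so no letters are in capitals.
KHDC1L, chr6:73225497-73225746, minus strand: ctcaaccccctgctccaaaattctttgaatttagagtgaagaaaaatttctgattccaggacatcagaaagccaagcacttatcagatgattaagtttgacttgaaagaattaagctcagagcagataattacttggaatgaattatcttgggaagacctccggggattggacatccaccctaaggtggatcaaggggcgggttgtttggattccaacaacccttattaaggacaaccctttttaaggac
RFPL2, chr22:32205074-32205323, minus strand: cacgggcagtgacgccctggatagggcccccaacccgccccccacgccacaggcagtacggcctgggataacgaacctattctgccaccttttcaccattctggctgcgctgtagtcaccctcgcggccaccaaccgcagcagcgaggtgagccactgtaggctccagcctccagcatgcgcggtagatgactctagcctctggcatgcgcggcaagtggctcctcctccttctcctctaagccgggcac
The GC content of these windows was 41.2% for KHDC1L and 64.4% for RFPL2. KDM4E and KHDC1P1 have no entry in that table.

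Library totals lay between 20367989 and 32180891 counts, and 3 counts over the 4 libraries of a group corresponded to 0.0272 CPM in ASO-L1, 0.0312 CPM in SO-L1 and 0.0302 CPM in ASO-Ctr. The unit CPM is a row's count divided by the library's total count and scaled to 1000000 counts. All 6 pluripotency markers examined (POU5F1, NANOG, SOX2, LIN28A, DNMT3B and TDGF1) were above 1 CPM on average, and their summed level was 5738 to 6109 CPM in ASO-L1, 6758 to 7031 CPM in SO-L1 and 6776 to 7377 CPM in ASO-Ctr. Summed levels of markers of other cell types also differed between groups. The 4 primitive endoderm markers, each under 1 CPM, summed to 1.44 to 2.06 CPM in ASO-L1, 0.442 to 0.783 CPM in SO-L1 and 0.713 to 1.05 CPM in ASO-Ctr, and 6 trophectoderm markers, 5 of them under 1 CPM, summed to 2.21 to 4.90, 1.69 to 2.89 and 1.49 to 2.62 CPM in the same order of groups. The 7 germ line and testis markers, 4 of them under 1 CPM, summed to 8.70 to 12.1 CPM in ASO-L1, 13.2 to 15.9 CPM in SO-L1 and 13.5 to 16.01 CPM in ASO-Ctr. The 6 fibroblast or feeder markers, 4 of them under 1 CPM, summed to 232 to 300 CPM, 193 to 278 CPM and 195 to 284 CPM. No marker of these lists was at 0 in every library, and the part of any such cells in the results below was not tested. In these bulk libraries, more cells that express a gene and more RNA per cell cannot be told apart.

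Most counts of the families came from rows that every library expressed. KHDC1, a KH-domain gene, ZSCAN5A, a SCAN zinc finger gene, and RFPL1S, an antisense RNA of the RFPL1 locus, were the only member rows with at least 50 counts in every library, and together they held 5012 of the 5549 member counts (90.3%). Their summed level was 15.9, 15.6, 17.0 and 17.8 CPM in ASO-L1 libraries 1 to 4, 15.4, 15.7, 17.4 and 16.6 CPM in SO-L1, and 15.3, 15.7, 17.5 and 16.6 CPM in ASO-Ctr. The 3 groups overlapped, and in each of them libraries 3 and 4 were above libraries 1 and 2.

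The remaining 94 rows, called rare here, held 537 counts, of which 67.8% fell in ASO-L1, 18.6% in SO-L1 and 13.6% in ASO-Ctr. They summed to 35, 47, 154 and 128 counts in ASO-L1 libraries 1 to 4, against 13, 21, 36 and 30 in SO-L1 and 21, 19, 20 and 13 in ASO-Ctr. Scaled by library total, this was 3.40 ± 2.29 CPM in ASO-L1, 1.01 ± 0.30 CPM in SO-L1 and 0.751 ± 0.21 CPM in ASO-Ctr (SD, n = 4 each). Every ASO-L1 library was above every library of the other two groups, and ASO-L1 libraries 3 and 4, at 5.39 and 5.38 CPM, stood above ASO-L1 libraries 1 and 2, at 1.36 and 1.46 CPM. The ratio of summed shares was 4.48 for ASO-L1 over ASO-Ctr (exact 95% interval 3.48 to 5.85) and 3.18 for ASO-L1 over SO-L1 (2.54 to 4.00). These intervals cover counting error only, and a total over members was given no test.

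**Figure D1:**
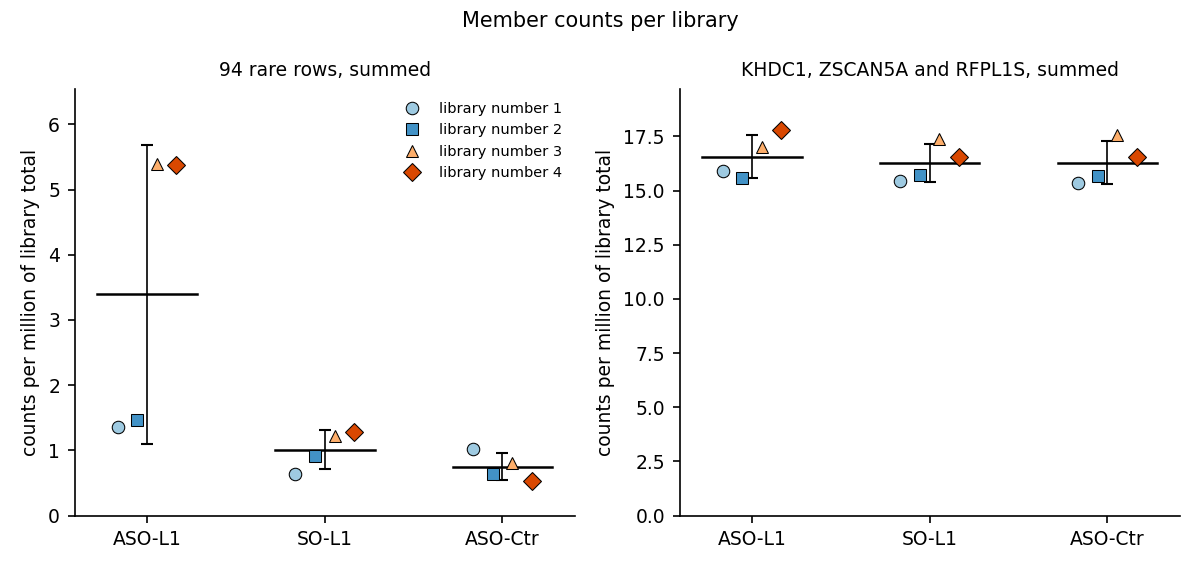
Summed CPM of library total (y axis) for the 94 rare member rows (left) and for KHDC1, ZSCAN5A and RFPL1S (right) in ASO-L1, SO-L1 and ASO-Ctr; points are libraries, marked by number, lines are means and bars are SD (n = 4). The rare rows reach 5.39 CPM in ASO-L1 and stay at or below 1.28 CPM in the other groups, whereas the common rows lie between 15.3 and 17.8 CPM in all groups.

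Summed over all 97 rows, of whose counts the common rows held 90.3%, the groups overlapped. All members together stood at 19.96 ± 3.25 CPM in ASO-L1, 17.3 ± 1.16 CPM in SO-L1 and 17.0 ± 0.95 CPM in ASO-Ctr (SD, n = 4 each), a ratio of 1.17 for ASO-L1 over ASO-Ctr, 1.15 for ASO-L1 over SO-L1 and 1.01 for SO-L1 over ASO-Ctr. Without KHDC1, ZSCAN5A and RFPL1S, a choice made after seeing the data, these ratios were 4.52, 3.35 and 1.35.

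KDM4E, a histone lysine demethylase of the KDM4 family, contributed the most rare counts. It had 14, 10, 41 and 36 counts in ASO-L1 libraries 1 to 4, against 0, 1, 6 and 1 in SO-L1 and 2, 0, 2 and 1 in ASO-Ctr. The mean level was 0.950 ± 0.61 CPM in ASO-L1, 0.0725 ± 0.090 CPM in SO-L1 and 0.0547 ± 0.043 CPM in ASO-Ctr (SD, n = 4 each), and the ASO-L1 libraries did not overlap with either of the other groups. The filter on low counts of the edgeR test left KDM4E out, so it was tested in a fit that keeps every row with a count. There it rose by 4.07 ± 0.75 on the log2 scale (SE) in ASO-L1 over ASO-Ctr (adjusted p = 0.0022, edgeR quasi-likelihood F test, Benjamini-Hochberg over 34852 rows) and by 3.43 ± 0.69 over SO-L1 (adjusted p = 0.0048). Leaving out each of the 12 libraries in turn gave log2 changes of 3.6 to 4.42 over ASO-Ctr (adjusted p from 2.53e-05 to 0.014) and 3.09 to 4.75 over SO-L1 (7.93e-05 to 0.027), and ASO-L1 was higher in 4 of 4 library numbers in both comparisons. The paralogues KDM4A, KDM4B, KDM4C and KDM4D, which act on the same class of histone mark, did not pass the edgeR test with the filter: KDM4D differed by 0.09 ± 0.14 on the log2 scale in ASO-L1 over ASO-Ctr (adjusted p = 0.73). With the library number as a block, KDM4A, KDM4B and KDM4C were lower in that comparison, by 0.12, 0.20 and 0.39 on the log2 scale (adjusted p = 0.00094, 2.02e-05 and 3.18e-10, where 22.5% of genes were called lower), and KDM4D did not pass (adjusted p = 0.62).

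KHDC1L is a shorter relative of KHDC1 in the KHDC1 cluster. It had 5, 8, 15 and 8 counts in ASO-L1 libraries 1 to 4, against 1, 6, 4 and 3 in SO-L1 and 0, 0, 0 and 2 in ASO-Ctr. The ASO-L1 and ASO-Ctr libraries did not overlap, while SO-L1 overlapped with both. In the fit without the filter KHDC1L rose by 3.72 ± 0.76 on the log2 scale in ASO-L1 over ASO-Ctr (adjusted p = 0.0013), and the ratio of summed shares was 16.2 with an exact 95% interval of 4.17 to 139. Over SO-L1 the difference was 1.14 ± 0.53 (adjusted p = 0.25), and SO-L1 over ASO-Ctr was 2.58 ± 0.90 (adjusted p = 1). Without ASO-Ctr library 4, the only ASO-Ctr library with a count, the fitted change over ASO-Ctr was 6.07 (adjusted p = 0.00058), a value that rests on a group at 0. Of the transcript of KHDC1L, 68.8% of 50-base windows also occur in another gene, so its counts are less certain than those of KDM4E, at 16.9%.

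RFPL2, a ret finger protein-like gene, had 4, 4, 39 and 29 counts in ASO-L1 libraries 1 to 4, against 2, 0, 6 and 3 in SO-L1 and 0, 3, 4 and 2 in ASO-Ctr. Libraries 3 and 4 of ASO-L1 were high, at 1.36 and 1.22 CPM, and libraries 1 and 2, at 0.155 and 0.124 CPM, lay within the range of the other groups. The fit without the filter gave 2.88 ± 0.97 on the log2 scale over ASO-Ctr (adjusted p = 0.11) and 2.57 ± 0.93 over SO-L1 (adjusted p = 0.15). With the library number as a block the same fit gave 2.86 ± 0.45 (adjusted p = 2.81e-09) and 2.66 ± 0.43 (9.68e-09), and DESeq2 without the block gave 2.99 (0.011) and 2.68 (0.023). DESeq2 kept RFPL2 by its own filter on mean counts, and 76 of its 96 counts were in ASO-L1, so the DESeq2 calls add no support. Without the block, leaving out ASO-L1 library 2 brought RFPL2 past the threshold over ASO-Ctr (adjusted p = 0.0184) and SO-L1 (0.0299), and leaving out ASO-L1 library 1 did so over ASO-Ctr (0.0458).

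KHDC1P1, a pseudogene of the same cluster, had 0, 4, 9 and 16 counts in ASO-L1 libraries 1 to 4, 0, 0, 1 and 2 in SO-L1 and 0, 0, 1 and 2 in ASO-Ctr. Its highest libraries in every group were 3 and 4. Without the block it differed by 2.95 ± 1.02 on the log2 scale over ASO-Ctr (adjusted p = 0.09) and by 2.91 ± 1.02 over SO-L1 (0.10), and with it by 3.01 ± 0.76 (0.00061) and 3.03 ± 0.76 (0.00061). Leaving out ASO-L1 library 1 brought it past the threshold without the block, at adjusted p = 0.0068 over ASO-Ctr and 0.0086 over SO-L1. ZSCAN5B, a zinc finger relative of ZSCAN5A, had 3, 4, 13 and 11 counts in ASO-L1, 1, 4, 7 and 6 in SO-L1 and 1, 5, 4 and 3 in ASO-Ctr, and its difference over ASO-Ctr, 1.09 ± 0.55, passed in neither of these fits (adjusted p = 0.30 without the block and 0.12 with it). RFPL3S, an RNA antisense to RFPL3, had 3, 6, 4 and 3 counts in ASO-L1, against 2, 7, 4 and 9 in SO-L1 and 8, 6, 3 and 1 in ASO-Ctr, and these overlapped.

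The other rare rows of these families held fewer counts. RFPL4A had 13 counts in ASO-L1, 9 in SO-L1 and 4 in ASO-Ctr, RFPL1 had 11, 1 and 4, and RFPL3 had 4, 1 and 1. RFPL4AL1 had 2, 2, 1 and 2 counts in ASO-L1 libraries 1 to 4, none in SO-L1 and 1 in ASO-Ctr library 1, and is named because it was seen not to overlap with SO-L1. RFPL4AP1 had 3 counts, all in ASO-L1. ZSCAN5C had 2 counts in ASO-L1, 5 in SO-L1 and 3 in ASO-Ctr, and ZSCAN5D had 1, 3 and 1, so these relatives of ZSCAN5B were not highest in ASO-L1.

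**Figure D2:**
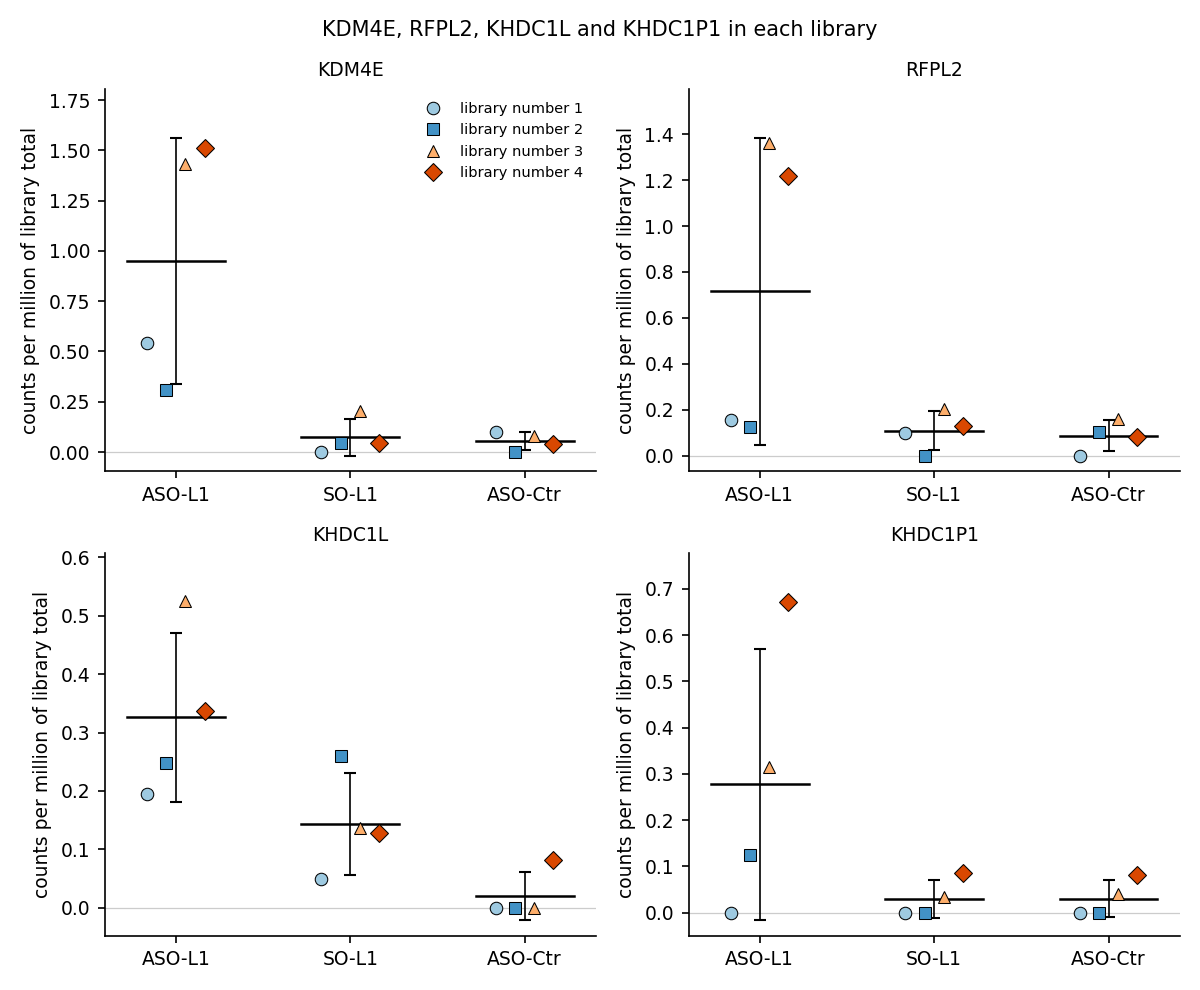
CPM of library total (y axis) for KDM4E, RFPL2, KHDC1L and KHDC1P1 in ASO-L1, SO-L1 and ASO-Ctr; points are libraries, marked by number, lines are means and bars are SD (n = 4), and the y axes differ. For KDM4E the ASO-L1 libraries lie between 0.311 and 1.51 CPM and all others at or below 0.204 CPM, and for RFPL2 only ASO-L1 libraries 3 and 4 stand apart.

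Counted over rows, the fit without the filter called 2 of 36 members higher in ASO-L1 than in ASO-Ctr, KDM4E and KHDC1L, and none lower, where 5.02% of all 34852 rows were called higher and 4.14% lower. Against SO-L1 it called 1 of 36 higher, KDM4E, where 4.42% of all rows were called higher and 3.69% lower. In SO-L1 against ASO-Ctr it called none of the 36, with 0.00287% of all rows called higher and 0.0201% lower. At these depths the shares of members called were near the background. With the block, 4 of 36 members were called higher in ASO-L1 than in ASO-Ctr (KDM4E, KHDC1L, KHDC1P1 and RFPL2; background 11.3%) and 3 of 36 higher than in SO-L1 (KDM4E, KHDC1P1 and RFPL2; background 10.6%), and RFPL1S lower than in SO-L1 (background 10.2%). DESeq2 called KDM4E and RFPL2 higher in both ASO-L1 comparisons and RFPL1S lower over SO-L1, with 10.6% of genes called higher and 10.2% lower over ASO-Ctr and 10.3% and 9.55% over SO-L1, and no member in SO-L1 over ASO-Ctr (0.0361% and 0.241%). KDM4E and RFPL2 passed the filter of DESeq2 on mean counts with most of their counts in ASO-L1, so their DESeq2 calls add no support. By plain order of the libraries, KDM4E and KHDC1L had all 4 ASO-L1 libraries above all 4 ASO-Ctr libraries (7.47% of rows with counts; 6.12% were below, with no member), KDM4E and RFPL4AL1 had them above all 4 SO-L1 libraries (7.03%), and RFPL1S had them below (5.99%). In SO-L1 over ASO-Ctr no member was separated in this way, with 0.941% of rows above and 0.844% below. The comparisons share libraries, so they do not count as separate evidence.

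The edgeR test with the filter reached 3 members, and of these RFPL1S changed. It had 96, 120, 95 and 87 counts in ASO-L1, 112, 115, 120 and 100 in SO-L1 and 99, 133, 111 and 90 in ASO-Ctr, or 3.61 ± 0.19, 4.71 ± 0.65 and 4.37 ± 0.47 CPM (SD, n = 4 each). All ASO-L1 libraries were below all SO-L1 libraries in CPM, and the change was -0.38 ± 0.12 on the log2 scale (adjusted p = 0.046, edgeR), with 9.64% of 17228 genes called lower. Over ASO-Ctr it was -0.28 ± 0.12 (adjusted p = 0.13, and 0.032 with the block), where 10.7% of genes were called lower. The call against SO-L1 was lost in 8 of the 12 fits that left out 1 library: each ASO-L1 library, SO-L1 library 1 or 2, or ASO-Ctr library 2 or 3 (adjusted p from 0.0577 to 0.131). KHDC1 stood at 7.08 ± 0.25 CPM in ASO-L1, 6.67 ± 0.275 CPM in SO-L1 and 6.67 ± 0.33 CPM in ASO-Ctr, a difference of 0.08 ± 0.07 over ASO-Ctr that did not pass (adjusted p = 0.52). ZSCAN5A stood at 5.87 ± 0.89, 4.89 ± 1.302 and 5.23 ± 1.07 CPM in the same order of groups, and its difference over SO-L1 of 0.25 ± 0.19 did not pass (adjusted p = 0.40), except with the block (0.25 ± 0.10, adjusted p = 0.040), under which 21.6% of genes were called higher and 21.7% lower over SO-L1, 22.5% in each direction over ASO-Ctr, and 0.424% higher and 0.987% lower in SO-L1 over ASO-Ctr.

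Pooling each family into 1 row, which does not depend on which copy of the family a read was given to, left 3 families with enough counts for the edgeR test with the filter. None of the 3 passed in any comparison, where 11.6% of features were called higher and 10.7% lower in ASO-L1 against ASO-Ctr, 10.7% and 9.63% against SO-L1, and 0% and 0.029% in SO-L1 against ASO-Ctr. At an unadjusted p under 0.05 edgeR had 1 of the 3 in ASO-L1 against ASO-Ctr and 0 in the others. The share of all features under that unadjusted threshold is not given here, so this count is not read as a result. DESeq2 called none of these 3, and called the KDM4E row, which its own filter on mean counts kept and most of whose counts were in ASO-L1, in both ASO-L1 comparisons. Without the filter 13 families were tested and KDM4E was the only one called, over ASO-Ctr (5.03% of features higher) and over SO-L1. The KHDC1 family stood at 7.69 ± 0.63 CPM in ASO-L1, 6.84 ± 0.35 CPM in SO-L1 and 6.72 ± 0.33 CPM in ASO-Ctr, a log2 difference of 0.19 ± 0.08 over ASO-Ctr (adjusted p = 0.11). The ZSCAN5 family stood at 6.18 ± 1.08, 5.17 ± 1.31 and 5.40 ± 1.05 CPM, with 0.24 ± 0.18 over SO-L1 (adjusted p = 0.40, and 0.033 with the block). The RFPL family stood at 4.81 ± 0.67, 5.15 ± 0.53 and 4.75 ± 0.64 CPM, with 0.01 ± 0.13 over ASO-Ctr (adjusted p = 0.97). In that family RFPL1S was lower on average in ASO-L1 and the sum of the other 11 rows higher. Those 11 rows held 11, 19, 57 and 43 counts in ASO-L1, 6, 9, 15 and 14 in SO-L1 and 12, 10, 11 and 4 in ASO-Ctr. Of their 130 counts in ASO-L1, 76 were RFPL2. In libraries 1 and 2 they averaged 0.509 CPM in ASO-L1 and 0.461 CPM in ASO-Ctr, and in libraries 3 and 4 1.90 and 0.304 CPM. With the 3 common rows taken out, a choice made after seeing the data, the pool of these 11 rows rose by 1.64 ± 0.50 on the log2 scale in ASO-L1 over ASO-Ctr (adjusted p = 0.032), with 11.3% of features called higher, and differed by 1.38 ± 0.49 over SO-L1 (adjusted p = 0.065, with 10.4% of features called higher).

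The other 10 families had under 50 counts each in the 12 libraries. Together their 77 rows held 2, 1, 17 and 14 counts in ASO-L1 libraries 1 to 4, against 0, 0, 2 and 3 in SO-L1 and 5, 1, 2 and 1 in ASO-Ctr. Libraries 3 and 4 of ASO-L1 stood apart, and libraries 1 and 2 of ASO-L1, at 0.0777 and 0.0311 CPM, were not above ASO-Ctr, at 0.034 to 0.243 CPM. The ratio of summed shares was 3.40 for ASO-L1 over ASO-Ctr (exact 95% interval 1.60 to 8.05) and 5.93 over SO-L1 (2.31 to 19.4). None of these families passed a test in any fit that tested it, and differences of single families were not detectable at this depth.

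Among them the homeobox genes that act early in the cascade were barely seen. The DUX4 row was at 0 in all libraries, and the 19 rows that begin with DUX4 held 0 counts in ASO-L1, 1 in SO-L1 and 1 in ASO-Ctr. LEUTX, a paired-like homeobox activator, had 1 count in each of ASO-L1 libraries 2, 3 and 4 and none in SO-L1 or ASO-Ctr. DUXA, another paired-like homeobox gene, had 2 counts in ASO-L1, 1 in SO-L1 and 1 in ASO-Ctr, and its pseudogene DUXAP1 had 3 counts, all in ASO-L1. The TPRX2 family, listed as TPRX2P, was at 0 in all libraries. The floor of 3 counts used here for a group at 0 is 0.0272 CPM in ASO-L1, 0.0312 CPM in SO-L1 and 0.0302 CPM in ASO-Ctr. It is a reference level for assigned reads and not a limit on the RNA.

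The families of effector genes were as thin. PRAMEF genes, relatives of the cancer-testis antigen PRAME, held 7 counts in ASO-L1, 1 in SO-L1 and 3 in ASO-Ctr over 23 rows, with PRAMEF2 (3, 1 and 0) and PRAMEF24P (1, 0 and 2) among the highest. The TRIM groups encode tripartite motif proteins, many of which are ubiquitin ligases. TRIM51BP, a pseudogene, was the only TRIM51 row with counts, 4 and 3 in ASO-L1 libraries 3 and 4 and none elsewhere. With the group at 0 set to 3 counts, the ratio was 2.10 over ASO-Ctr and 2.04 over SO-L1. These ratios take the ASO-L1 counts as exact and are not lower limits. The TRIM51 family did not pass in the edgeR fit without the filter (adjusted p = 0.20 over ASO-Ctr and 0.21 over SO-L1). TRIM43 had 5 counts in ASO-L1, 2 in SO-L1 and 1 in ASO-Ctr, TRIM43B had 1, 0 and 2, and TRIM49C, TRIM49B and TRIM48 had 2, 1 and 1 counts in ASO-L1 alone. MBD3L1 and MBD3L2, relatives of the methyl-CpG-binding protein MBD3, had 1 count each, both in ASO-L1 library 1.

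**Figure D3:**
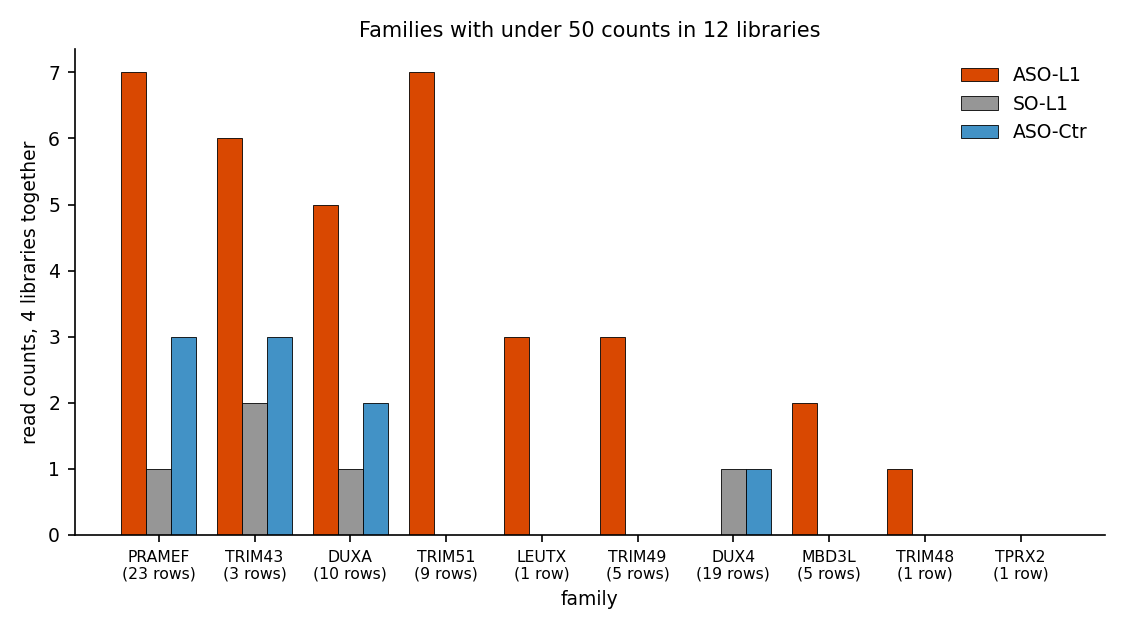
Read counts over the 4 libraries of each group (y axis) for the 10 families with under 50 counts in all (x axis, with the number of rows of each family); bars are ASO-L1, SO-L1 and ASO-Ctr, with no error bars since each bar is a sum. ASO-L1 has the most counts in every family except DUX4, with 0, and TPRX2, at 0 in all groups, and no bar is above 7 counts.

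In direction, 24 of the 33 rare rows with counts had a higher summed share in ASO-L1 than in ASO-Ctr and 8 a lower one, where 47.5% of the 17885 rows of the whole table with no more counts than KDM4E were higher. Against SO-L1, 26 were higher and 4 lower (background 46.8%), and in SO-L1 against ASO-Ctr 14 were higher and 7 lower (background 50.1%). The 27 rare rows with fewer than 30 counts held 75 counts in ASO-L1, 24 in SO-L1 and 23 in ASO-Ctr. All rows of the table with 1 to 29 counts had a ratio of summed shares of 1.12 for ASO-L1 over ASO-Ctr, against 2.93 for these members. By library, 1 to 4, these members held 6, 11, 33 and 25 counts in ASO-L1, 7, 3, 8 and 6 in SO-L1 and 10, 5, 6 and 2 in ASO-Ctr. Scaled by library total, ASO-L1 libraries 3 and 4 stood above every library of the other groups. ASO-L1 library 2, with 11 counts, was above library 2 of SO-L1 and of ASO-Ctr, with 3 and 5. Library 1 of ASO-L1, with 6 counts, was below library 1 of both, with 7 and 10. In libraries 1 and 2 together these members averaged 0.287 CPM in ASO-L1, 0.237 CPM in SO-L1 and 0.327 CPM in ASO-Ctr. The rows share loci and reads, so these counts describe the members and carry no test.

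The spread of the copies over one another was measured on the transcripts of GENCODE 29. For 94 of the 97 members the longest transcript was cut into windows of 50 bases, and the share of windows also present on the same strand in a transcript of another gene was taken. PRAMEF21 and TRIM49D2P were matched through synonyms to the transcripts of PRAMEF20 and TRIM49D1 and so repeat the values of those 2 members. This share was over 50% for 44 members, with a median of 87.4%, and at or under 50% for 50 members, with a median of 11.9%. Of the first set, 34 rows were at 0 in all libraries and none had more than 52 counts, and of the second set, 24 were at 0. KHDC1 (0.848%), RFPL1S (3.78%), ZSCAN5A (11.7%), RFPL2 (13.4%) and KDM4E (16.9%) were mostly distinct, while KHDC1L (68.8%), TRIM51BP (88.5%) and the DUX4 row (84.0%) were mostly shared. By family the median share was 100% for the rows that begin with DUX4, 91.0% for MBD3L, 77.3% for TRIM43 and 65.5% for PRAMEF, and 16.9% for ZSCAN5 and 12.7% for RFPL. How reads that fit several copies were counted is not given in the sources used here, so a 0 in a shared row limits the reads assigned to it and not its RNA.

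**Figure D4:**
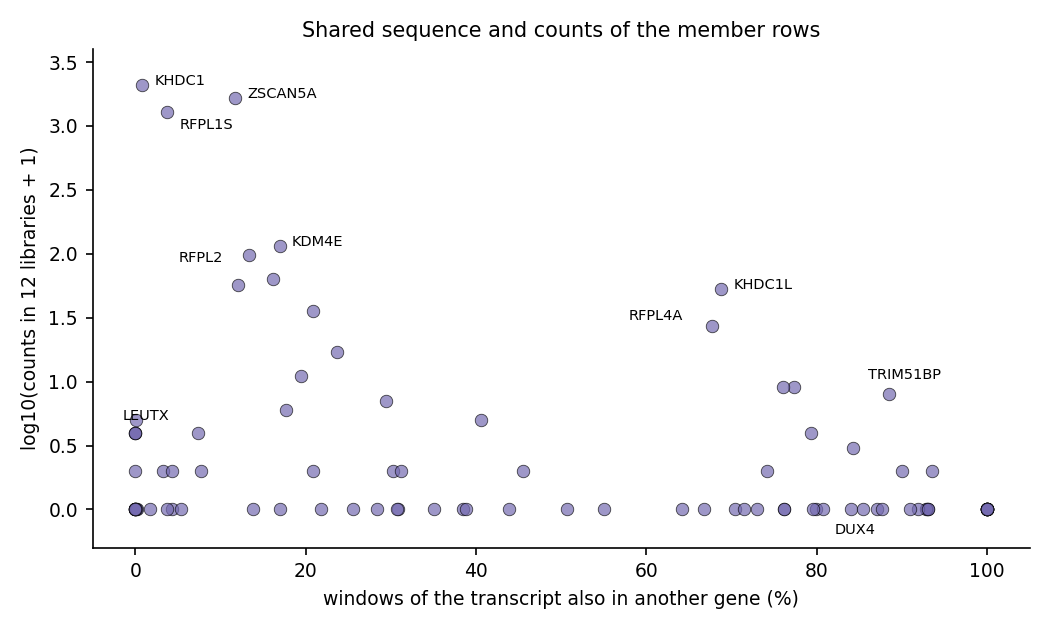
Share of the 50-base windows of a member's longest transcript that also occur in another gene (x axis, %) against log10 of its counts in 12 libraries plus 1 (y axis); each point is 1 of 94 members. The 3 common rows lie at 11.7% or less, and no member above 50% reaches more than 52 counts.

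Library number was a further source of variation. Across all 3 groups the ZSCAN5 family differed among the numbers: relative to library 1, it was higher by 0.50 on the log2 scale in library 3 and 0.46 in library 4, and by 0.01 in library 2 (adjusted p = 8.47e-05, edgeR F test). The KHDC1 and RFPL families did not pass this test (adjusted p = 0.51 and 0.88), which called 45.7% of all features. For ASO-L1 over ASO-Ctr the RFPL family stood at -0.26 on the log2 scale within libraries 1 and 2 and at 0.28 within libraries 3 and 4. The difference between these, 0.54 ± 0.20, did not pass (adjusted p = 0.29, with 0.778% of features called). For KDM4E, RFPL2, KHDC1L and KHDC1P1 the same test, in the fit without the filter, did not pass either (adjusted p of 0.98 or more over ASO-Ctr), with 0.511% of rows called. RFPL2 stood at 1.15 within libraries 1 and 2 and at 3.35 within libraries 3 and 4. Fitted on libraries 3 and 4 alone, 6 members passed the filter. Of these KDM4E, RFPL2 and ZSCAN5B were called higher over ASO-Ctr (17.9% of genes higher, 17% lower) and KDM4E and RFPL2 over SO-L1 (17.6% and 16%). These rows had their highest counts in ASO-L1, so they could pass the filter through the group where they were high, and their calls here add no support. On libraries 1 and 2 alone none of the 3 members tested was called over ASO-Ctr (17.6% of genes in each direction), and over SO-L1 ZSCAN5A was called higher and RFPL1S lower (17.3% and 16.9%). KDM4E and KHDC1L, left out there by the filter, were the 2 of 24 members called higher over ASO-Ctr on libraries 1 and 2 alone without it, where 9.9% of all rows were called higher. In SO-L1 over ASO-Ctr no member was called on either pair of libraries (libraries 3 and 4 had 0.367% of genes higher and 0.785% lower).

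The authors' deposited table for ASO-L1 against SO-L1 holds 11 members. In the authors' deposited table KDM4E has a log2 fold change of 3.47 (adjusted p = 0.000826), KHDC1P1 2.34 (0.0119), RFPL2 2.51 (0.0224), RFPL1S -0.376 (0.0116) and KHDC1L 1.17 (0.113). The members of that table not named here do not pass, with adjusted p from 0.189 (ZSCAN5A) to 0.992 (RFPL4A). In it 25.08% of 21414 genes have an adjusted p under 0.05. The model behind the authors' deposited table is not given in the sources used here.

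Genes of the same stage outside the multicopy families were read from the edgeR fit with the filter. This list and the regulator list below were chosen with earlier results of these data known. Their counts and medians are therefore a description and give no independent support. Of 16 genes listed as active at the 8-cell stage, 11 were tested, 6 were called higher in ASO-L1 than in ASO-Ctr and none lower, where 11.6% of all genes were called higher and 10.7% lower. Tested but not called, CCNJ and ZNF296 differed by -0.09 and -0.07. DPRX and ARGFX were not tested there. Without the filter, DPRX stood at -0.96 within libraries 1 and 2 and -1.85 within libraries 3 and 4 over ASO-Ctr. ARGFX stood at 2.20 and -0.31. The median difference of the 11 was 1.74 on the log2 scale, against -0.001 over all genes. Listed genes that were low in the other groups could pass the filter through ASO-L1 alone. For that reason too, these calls and the median add no support. The block called 9 of the 11 higher and none lower (22.5% of all genes in each direction), and the fit without the filter, the one used for KDM4E and KHDC1L, called 2 (5.02% of all rows higher). FAM151A rose by 2.78 ± 0.42 (adjusted p = 0.00046), ZSCAN4, a SCAN zinc finger gene that marks this stage, by 1.95 ± 0.40 (0.0037), TPRX1, a paired-like homeobox gene, by 2.02 ± 0.49 (0.0093) and SLC34A2, a phosphate transporter, by 2.11 ± 0.55 (0.015). TPRX1 had 57, 84, 256 and 202 counts in ASO-L1, 20, 25, 58 and 45 in SO-L1 and 12, 37, 55 and 31 in ASO-Ctr. Libraries 3 and 4 had its highest counts in ASO-L1 and in SO-L1, as for the sum of the rare rows. In ASO-Ctr library 3 had the most TPRX1 counts, which the sum of the rare rows did not show. Against SO-L1, 6 were called higher and none lower, with a median of 1.59, where 10.7% of all genes were called higher and 9.64% lower. In that comparison the block called 8 higher and ZNF296 lower (-0.17 ± 0.05, adjusted p = 0.0065; 21.6% of all genes higher and 21.7% lower), the fit without the filter called 2 (4.42% of all rows higher), and leaving out ASO-L1 library 3 left 3. In SO-L1 against ASO-Ctr none of the 11 was called, with a median of 0.08. Of 10 genes that act on DUX4 or on silencing, all tested, DNMT3B, a DNA methyltransferase, was the only one called, with -0.34 ± 0.03 over ASO-Ctr (adjusted p = 1.89e-05) and -0.30 ± 0.03 over SO-L1 (6.02e-05), and the median of the 10 was 0.04 over ASO-Ctr. With the block 2 of the 10 were called higher and 3 lower over ASO-Ctr, where 22.5% of all genes were called in each direction.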

How the data were processed

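Poly(A) RNA of 12 libraries (3 groups of 4, grouped by their titles) was analysed. Per the submitters' processing notes, reads were handled with Trim Galore 0.4.0, TopHat2 2.0.13 and featureCounts of Subread 1.5.0 on hg19; counting options and the meaning of the table's rmDup tag are not given in the sources used here. The authors deposited raw counts per gene symbol, whose header is shifted by 1 cell; columns were assigned by their header names and checked against the authors' deposited log2 batch-corrected values, where all 12 correlated best with their namesake. A nameless row (at most 1.3e-05% of a library) was left out. The authors' table of log2 fold changes with p-values was read only for single members.

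Counts were fitted in R 4.3.3 with edgeR 4.0.16 (filterByExpr with least count 10 and total 15, TMM, robust quasi-likelihood F test, two-sided, all 12 libraries, threshold 0.05 after Benjamini-Hochberg adjustment over all features), on the rows as deposited and with each family summed to 1 row. SE is the size of the log2 change divided by the square root of F. Alternatives were DESeq2 1.42.0, RLE factors, total counts, no filter, subsets of libraries, subsets of rows and the library number as a block. Scripts were tested on simulated data. Intervals are exact 95% binomial intervals of the summed counts. Libraries of the same number deviated together across groups (r = 0.45 to 0.561 in 12 pairs, taken from the numbers in the titles). Libraries with the other number of the sets 1 with 2 and 3 with 4 did so as closely (0.455 to 0.543). Libraries of different sets deviated in opposite directions (-0.53 to -0.426). These values show the 2 sets and do not show pairs by number. The block follows the numbers in the titles, and the main fits leave numbers and sets out.

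The members, lists and number sets were chosen with earlier results of these data known. Genes named are the 3 rows per family with the most counts, rows past the threshold, LEUTX, DUXA, DUX4, TPRX2 and KDM4E, and up to 4 listed genes with the smallest p; the KDM4 paralogues and DUXAP1, TRIM49B and the common rows' removal were added after values were seen. Promoter windows are RefSeq's (GRCh38.p14) and used for letters only.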

Additional observations from a re-analysis of the deposited data

How the results depend on the processing

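The pooled families called numbered 0 in the 3 comparisons with TMM, RLE factors, total counts, or without rows named as pseudogene or antisense. In ASO-L1 over ASO-Ctr the count was 1 with DESeq2, without the filter and in numbers 3 and 4 only (KDM4E in each), and 1 without the row with the most counts of each family or without KHDC1, ZSCAN5A and RFPL1S (RFPL); in ASO-L1 over SO-L1 it was 1 with DESeq2, without the filter, in numbers 3 and 4 (KDM4E), in numbers 1 and 2 (RFPL, lower) and with the replicate block (ZSCAN5). Leaving out 1 library gave 0 to 1 in both, with KDM4E past the filter, through its ASO-L1 counts, where it was 1, so these calls add no support. Member genes called, 0 over ASO-Ctr, were 2 with DESeq2, 2 without the filter, 3 in numbers 3 and 4, 1 with the replicate block and 0 to 1 without 1 library. Over SO-L1, where 1 was called, the counts were 3 with DESeq2, 2 in numbers 1 and 2, 2 in numbers 3 and 4, 2 with the replicate block and 0 to 2 without 1 library; without the filter the 1 call was KDM4E and not RFPL1S (adjusted p = 0.106). The replicate block raised the calls over all genes (over ASO-Ctr, 11.6% higher without it and 22.5% with it) and changed no call of the pooled families over ASO-Ctr. The CPM ratio of all members moved to 4.39 over ASO-Ctr, 3.32 over SO-L1 and 1.32 for SO-L1 over ASO-Ctr without the top rows, to 4.52, 3.35 and 1.35 without the common rows, and to 1.28 over SO-L1 without pseudogene or antisense rows; leaving out 1 library gave 1.11 to 1.23, 1.09 to 1.21 and 0.989 to 1.04. The 8-cell stage genes called, 6 over ASO-Ctr and 6 over SO-L1 as reported above, were 2 and 2 without the filter, 9 and 9 with the replicate block, 10 and 9 in numbers 3 and 4, 6 and 8 in numbers 1 and 2, 7 and 6 with DESeq2, 6 and 5 with total counts, and 5 to 7 and 3 to 6 without 1 library. Regulators called, 1 in each comparison as reported above, were 2 with DESeq2 in both, 2 with total counts over ASO-Ctr, 3 and 5 in numbers 1 and 2, 5 and 5 in numbers 3 and 4, 5 and 6 with the block, and 2 at most without 1 library. Of all genes, 17.6% were called higher and 17.6% lower over ASO-Ctr in numbers 1 and 2. The shares were 17.9% and 17% in numbers 3 and 4, 22.5% and 22.5% with the block, and 10.6% and 10.2% with DESeq2. Over SO-L1 they were 17.3% and 16.9%, 17.6% and 16%, 21.6% and 21.7%, and 10.3% and 9.55% in the same order. The counts of both lists are to be read beside these shares, and not as results about the genes. The numbers test and its interaction gave 1 and 0 families also with RLE factors.

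Against the main fit, or for rare rows the fit without the filter, signs turned in uncalled differences only. Between other settings the RFPL family turned with a call on 1 side. Over SO-L1 it was called lower in numbers 1 and 2 (-0.39, edgeR adjusted p = 0.033). Over ASO-Ctr it was called higher without its common row (1.64, edgeR adjusted p = 0.032). The RFPL family was -0.26 in numbers 1 and 2 over ASO-Ctr and 0.19 in numbers 3 and 4 over SO-L1, and 1.38 over SO-L1 without its common or top row; without 1 library it was -0.0768 to 0.0762 over ASO-Ctr. In SO-L1 over ASO-Ctr, numbers 1 and 2 gave -0.69 for KDM4E, -0.34 for RFPL2, -0.0553 for ZSCAN5B and -0.44 for RFPL3S; KHDC1P1 was -0.0895 in numbers 3 and 4 and -0.0172 with the replicate block; RFPL3S was 0.67 in numbers 3 and 4 over ASO-Ctr. Ranges without 1 library that crossed 0 in SO-L1 over ASO-Ctr were -0.00214 to 0.0523 for the KHDC1 family, -0.219 to 0.046 for the ZSCAN5 family, -0.025 to 0.0186 for KHDC1, -0.26 to 0.0217 for ZSCAN5A, -0.681 to 1 for KDM4E, -0.261 to 0.708 for RFPL2, -0.921 to 0.969 for KHDC1P1, -0.0279 to 0.826 for RFPL3S, and -0.671 to 0.17 for RFPL3S in ASO-L1 over ASO-Ctr. The cause was not tested. Rows with a few counts limit every statement here: 1 count is 0.031 to 0.0491 CPM in a library, and no family with under 50 counts passed a test. No setting run turned the direction of KDM4E, RFPL2, KHDC1L or KHDC1P1 over ASO-Ctr or SO-L1.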
